A study of Mus musculus with 6 samples.

Results

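The enzymes that write and erase marks on chromatin were compared between BCR-ABL1-transformed mouse pre-B cells that carried a tamoxifen-activated Cre recombinase and cells of the same kind that carried its vector without Cre. The genes were chosen by their symbols: the lysine demethylases (Kdm), histone deacetylases (Hdac), sirtuins (Sirt), lysine acetyltransferases (Kat), lysine methyltransferases (Kmt and Setd), arginine methyltransferases (Prmt), DNA methyltransferases (Dnmt) and methylcytosine dioxygenases (Tet). Kdm2b, Kdm6a and Kdm6b, which belong to polycomb biology, were left out. This gave 73 members among 19938 measured genes. All but Dnmt3aos, an RNA from the opposite strand of Dnmt3a, are protein-coding genes, so 72 members were enzymes or their close relatives. The rule itself uses gene symbols only, but it was drawn up with earlier results of these data known.

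The cells called Cre-ERT2 here were C57Bl/6 pre-B cells of the genotype Bcor fl/Y, transformed by BCR-ABL1 and transduced with the vector PMIP-CRE-ERT2 (3 arrays). The control cells, called ERT2, had the same strain, genotype and transformation and were transduced with PMIP-ERT2 (3 arrays). Cells of either kind were kept for 2 days in 0.5 micromolar 4-hydroxytamoxifen, which activates the Cre fusion, and RNA came from puromycin-resistant cells. The comparison therefore holds Cre activity and the loss of the floxed part of Bcor together, and these cannot be told apart, since no group carried Cre with an intact Bcor gene. The labels do not give the promoter that drives Cre. They also do not say that the 3 samples of a group were grown separately, and p-values then rest on a spread that may be purely technical, that of these samples.

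Histones carry acetyl and methyl groups that are placed by writers and removed by erasers. Acetylation by the Kat enzymes and methylation of histone H3 at lysine 4 by the Kmt2 and Setd1 enzymes mark active promoters and enhancers, and deacetylases and the Kdm1 and Kdm5 demethylases take these marks away. Dnmt enzymes methylate cytosine in CpG dinucleotides, and Tet enzymes oxidise that methyl group. Bcor is part of a polycomb complex, PRC1.1, that Kdm2b brings to CpG-rich promoters, and the mutated forms of several writers (Kmt2a, Kmt2d, Setd2) are known from human lymphoid cancers.

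The array medians over all probe sets lay between 8.61 and 8.68 on the log2 scale in Cre-ERT2 cells and between 8.61 and 8.66 in ERT2 cells. Bcor, the targeted gene, averaged 9.16 ± 0.0716 in Cre-ERT2 cells and 10.12 ± 0.0517 in ERT2 cells (SD, n = 3 arrays each), and fell by 0.96 on the log2 scale (SE 0.0491, limma adjusted p = 2.11e-05). Of the 9 measured markers of the B lineage, the group means lay between 11.26 and 14.25 in Cre-ERT2 cells and between 11.18 and 14.20 in ERT2 cells, and only Cd22 was called (0.27). The 9 markers of T and NK cells lay between 6.78 and 8.51 in Cre-ERT2 cells and between 7.01 and 8.54 in ERT2 cells, with a fall of 0.23 in Ncr1. The 9 myeloid markers lay between 7.08 and 10.21 in Cre-ERT2 cells and between 7.04 and 9.76 in ERT2 cells, with Lyz2 higher by 0.45. The 5 markers of erythroid cells and megakaryocytes (7.30 to 8.87 in Cre-ERT2 cells, 7.37 to 8.91 in ERT2 cells) and the 8 of stroma and endothelium (7.20 to 10.77 in Cre-ERT2 cells, 7.32 to 10.64 in ERT2 cells) held 0 calls. The part of these markers in the results was not tested. Kdm5d, a member on the Y chromosome, had levels from 10.46 to 10.69 in the 6 arrays, and the labels give a male genotype. In RNA from whole cultures, fewer cells that express a gene and less RNA per cell cannot be told apart.

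Few members changed, and those that did changed little. With limma and Benjamini-Hochberg adjustment over all genes, a gene being called at an adjusted p under 0.05, 2 of the 73 members rose in Cre-ERT2 cells, Kdm7a and Kdm5b, 3 fell, Setd6, Dnmt3l and Prmt9, and 68 did not pass. The 5 calls are 6.85% of the members, beside 7.03% of all genes. The higher calls are 2 of 73 against 4.05% of all genes, and the lower calls 3 of 73 against 2.98%. At an unadjusted p under 0.05 there were 17 members (23.3%), beside 23.0% of all genes. With all genes counted, the share of chromatin modifying enzymes was near that of all genes on either measure. With the dimmest 30% of genes left out, 5 of 69 members (7.25%) were called, beside 12.5% of all genes, and with array weights 12.3% of members, beside 16.7%. The members are bright on these arrays, with a median of 10.81 to 10.83 over members in Cre-ERT2 arrays and 10.91 to 10.96 in ERT2 arrays, against the medians of 8.61 to 8.68 over all probe sets given above.

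The median log2 fold change (Cre-ERT2 minus ERT2, the direction of every fold change here) was -0.02 over the members and -0.04 over all genes. It was negative for 42 of 73 members, and 68.2% of all genes were negative. Without replicate 3 of both groups the median was -0.05 over the members, 52 of 73 negative, and -0.04 over all genes, so the order of the medians turned. The arrays of the groups did not overlap for 27 members (37.0%), 20 of them lower and 7 higher in Cre-ERT2 cells, beside 29.9% of all genes (20.3% lower and 9.56% higher). No member (0 of 73) changed by 0.5 or more, where 186 of all genes did. For 63 members (86.3%) the 95% interval of the fold change lay within 1.2-fold in either direction, beside 82.9% of all genes.

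**Figure D1:**
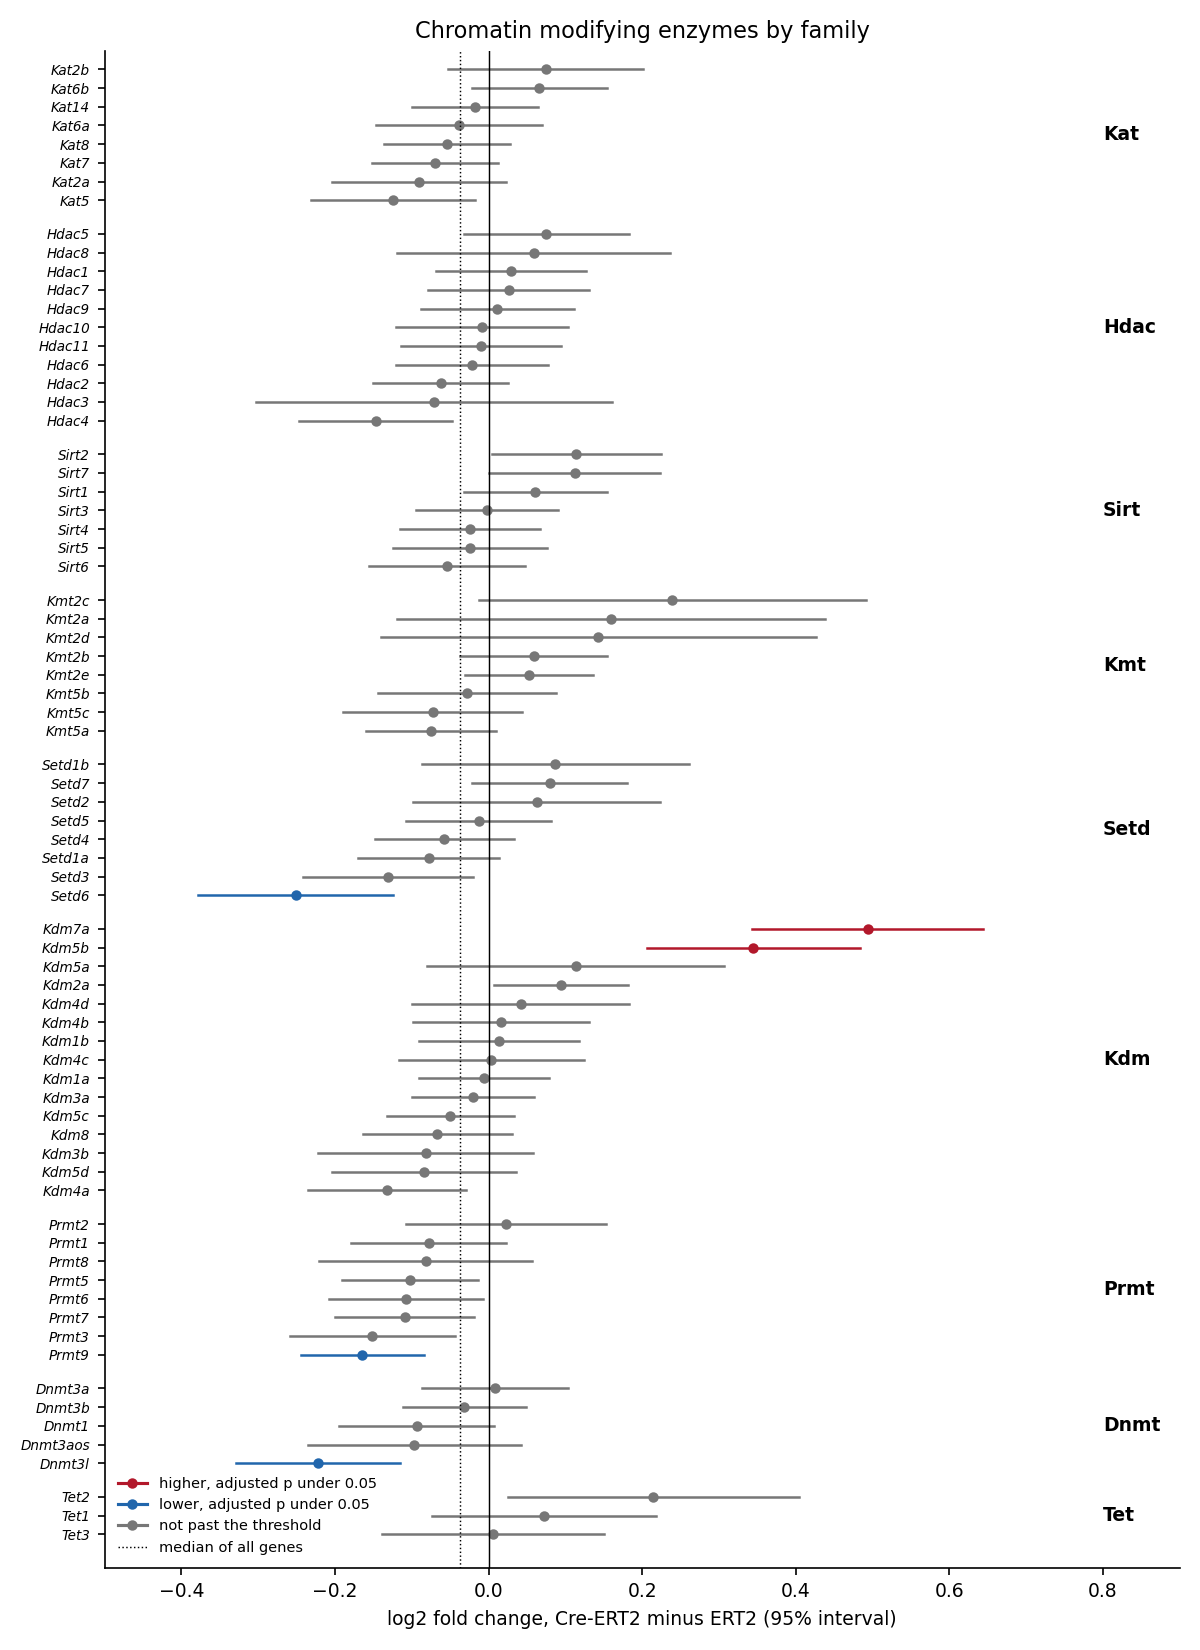
Log2 fold change of each of the 73 members, Cre-ERT2 minus ERT2 (x axis), with its 95% interval, grouped by family down the page; red marks higher and blue lower at an adjusted p under 0.05, grey the rest, and the dotted line is the median of all genes. Kdm7a (0.49) and Kdm5b (0.34) stand to the right of every other member, and the Prmt family lies left of 0 except Prmt2.

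Kdm7a had the largest change of the set in the reported fit. It encodes a demethylase with a PHD finger that reads methylated lysine 4 of histone H3 and a JmjC domain that removes methyl groups from lysines 9 and 27 of the same histone, marks of silenced chromatin. Its log2 level was 9.23, 9.24 and 9.41 in the Cre-ERT2 arrays, against 8.91, 8.79 and 8.70 in the ERT2 arrays. All Cre-ERT2 arrays lay above all ERT2 arrays. The means were 9.29 ± 0.0971 in Cre-ERT2 cells and 8.80 ± 0.104 in ERT2 cells (SD, n = 3 each), a rise of 0.49 (SE 0.0659, limma adjusted p = 0.00282), or 1.41-fold. Without replicate 3 of both groups, Kdm7a rose by 0.388 and Kdm5b by 0.396, so the order of these genes turned.

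The array carries another probe set for Kdm7a, which the rule for 1 probe set per gene did not use. It read 8.04, 8.01 and 7.99 in the Cre-ERT2 arrays and 7.62, 7.42 and 7.52 in the ERT2 arrays. Its groups did not overlap either, and it rose by 0.50 (SE 0.0529, limma adjusted p = 0.00101 over all probe sets with 1 gene symbol). Both probe sets thus gave the same size of change, on the same RNA. The values of this other probe set lay below the median of every array over all probe sets, and its signal over background is not known. The relatives Phf8 and Phf2, which share the PHD and JmjC arrangement, were not called (Phf8 at 0.02, 95% interval -0.08 to 0.11 and Phf2 at -0.03, 95% interval -0.12 to 0.05).

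Kdm5b was the other member that rose. It removes di- and trimethylation from lysine 4 of histone H3 and so takes away a mark of active promoters. Its log2 level was 8.23, 8.11 and 8.21 in Cre-ERT2 arrays, against 7.79, 7.76 and 7.97 in ERT2 arrays. The groups were apart, with the closest pair of arrays at 8.11 (Cre-ERT2) and 7.97 (ERT2). The means of 8.18 ± 0.0614 in Cre-ERT2 cells and 7.84 ± 0.111 in ERT2 cells (SD, n = 3 each) give a rise of 0.34 (SE 0.0608, limma adjusted p = 0.0111), or 1.27-fold. Both means lay below the median of every array over all probe sets. With no detection limit used, whether Kdm5b is expressed at this level in either group is not known.

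The other enzymes of the Kdm5 group did not pass. Kdm5a, which has the same substrate, was at 0.11 (95% interval -0.08 to 0.31), Kdm5c on the X chromosome at -0.05 (-0.13 to 0.03) and Kdm5d at -0.08 (-0.20 to 0.04). The interval of Kdm5b, 0.21 to 0.48, lay above those of Kdm5c and Kdm5d and overlapped that of Kdm5a. The differences between these genes were not tested.

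The promoter windows of the 2 genes that rose, and 1 of those of Dnmt3l, which fell, are shown because PRC1.1 is known to be brought to CpG-rich DNA and they differ in that content. Each runs from 250 bases before to 50 bases after an annotated start, from RefSeq on GRCm38.p6, written 5′ to 3′ on the gene's strand, with CpG dinucleotides in capitals. The Kdm7a window is chr6:39206724-39207023 on the minus strand, that of Kdm5b chr1:134559928-134560227 on the plus strand and that of Dnmt3l chr10:78042037-78042336 on the plus strand.
Kdm7a: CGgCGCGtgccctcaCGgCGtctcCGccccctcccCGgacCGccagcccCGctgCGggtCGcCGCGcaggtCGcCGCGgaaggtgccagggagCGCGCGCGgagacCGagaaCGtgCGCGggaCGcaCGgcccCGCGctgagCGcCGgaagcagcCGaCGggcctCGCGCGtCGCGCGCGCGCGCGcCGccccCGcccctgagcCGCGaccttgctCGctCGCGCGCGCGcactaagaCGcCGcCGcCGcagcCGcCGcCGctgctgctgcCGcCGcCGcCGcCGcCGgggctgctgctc
Kdm5b: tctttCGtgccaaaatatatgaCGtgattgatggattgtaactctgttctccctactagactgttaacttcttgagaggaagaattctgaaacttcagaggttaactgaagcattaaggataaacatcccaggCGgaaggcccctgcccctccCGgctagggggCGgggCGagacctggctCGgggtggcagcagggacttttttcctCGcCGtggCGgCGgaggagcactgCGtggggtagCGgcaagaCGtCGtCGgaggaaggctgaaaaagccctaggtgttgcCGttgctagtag
Dnmt3l: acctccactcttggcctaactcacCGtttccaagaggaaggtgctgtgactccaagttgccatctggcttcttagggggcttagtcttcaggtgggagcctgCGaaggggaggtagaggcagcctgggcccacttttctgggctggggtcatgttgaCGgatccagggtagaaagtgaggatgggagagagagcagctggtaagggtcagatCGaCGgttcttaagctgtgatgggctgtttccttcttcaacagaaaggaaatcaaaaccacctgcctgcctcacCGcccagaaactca
The Kdm7a window holds 65 CpG dinucleotides, the most of any member's window. The Kdm5b window holds 17 and this Dnmt3l window 6. The windows of the other genes that fell, Setd6 and Prmt9, are not shown and hold 28 and 17. Whether CpG content goes with the direction of change was not tested.

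RefSeq windows were at hand for 62 of the 73 members, 86 windows in all, since some genes have several annotated starts. A window was called CpG-rich when at least 50% of its bases were G or C and its CpG count was at least 0.6 of that predicted from its base composition. This held for 62 of 86 member windows (72.1%), against 48.5% of the 19177 windows of genes on the array. It held for both windows of genes that rose and for 2 of the 5 windows of genes that fell, those of Setd6 (28 CpG) and Prmt9 (17 CpG), while the 3 windows of Dnmt3l, with 3 to 6 CpG, were not CpG-rich. Among the members that were not called, 73.4% of 79 windows were CpG-rich. The motif TTCNNNGAA, which reads the same on both strands and which STAT factors and BCL6-type sites share, was found in 7 of 86 member windows (8.14%), in 0 of the 2 windows of genes that rose, in 1 of the 5 of genes that fell (a Dnmt3l window), and in 7.66% of the windows of genes on the array.

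The remaining demethylases did not pass. Kdm2a, the relative of Kdm2b that acts on lysine 36 of histone H3, had 11.40, 11.41 and 11.46 in Cre-ERT2 arrays and 11.31, 11.32 and 11.36 in ERT2 arrays. Its groups did not overlap, but at 0.09 (SE 0.0381) it had a limma adjusted p of 0.184. Kdm4a, a demethylase of lysines 9 and 36, was at -0.13 (SE 0.0452, limma adjusted p = 0.128), also with groups apart. Kdm1a and Kdm1b, which oxidise methyl groups on lysine 4 with the help of a flavin, were at -0.01 and 0.01. Kdm3a and Kdm3b, demethylases of lysine 9, were at -0.02 and -0.08, and Kdm4b, Kdm4c and Kdm4d lay between 0.00 and 0.04. Kdm8 was at -0.07. Of the 15 measured Kdm members, 2 rose, 0 fell and 13 did not pass.

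Setd6 had the largest fall of the set in the reported fit. It encodes a methyltransferase known for placing a single methyl group on the NF-kB subunit RelA. Its log2 level was 10.72, 10.59 and 10.80 in Cre-ERT2 arrays, against 10.92, 10.96 and 10.99 in ERT2 arrays, with no overlap. The mean was 10.70 ± 0.105 in Cre-ERT2 cells and 10.95 ± 0.0368 in ERT2 cells (SD, n = 3 each), so it fell by 0.25 on the log2 scale (SE 0.0558, limma adjusted p = 0.0316), or 1.19-fold. Without Cre-ERT2 replicate 2, the fold change was -0.196 for Setd6 and -0.225 for Dnmt3l, so the order of these genes turned.

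Dnmt3l encodes a partner of Dnmt3a and Dnmt3b that has no catalytic activity of its own and stimulates theirs. It read 7.65, 7.65 and 7.64 in Cre-ERT2 arrays, against 7.78, 7.91 and 7.92 in ERT2 arrays, with no overlap. It fell by 0.22 (SE 0.0467, limma adjusted p = 0.0248). The Cre-ERT2 values were nearly equal, with an SD of 0.00481, while that of ERT2 was 0.0792 (n = 3 each). No detection limit was used here, so whether the gene is expressed at this level in either group is not known.

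Prmt9 encodes an arginine methyltransferase known to act on the splicing factor Sf3b2. Its values were 10.83, 10.81 and 10.82 in Cre-ERT2 arrays, against 10.99, 10.98 and 10.98 in ERT2 arrays. The spread within either group was small, with SDs of 0.0109 in Cre-ERT2 cells and 0.00901 in ERT2 cells (n = 3 each), and the gene fell by 0.16 (SE 0.0351, limma adjusted p = 0.0267), or 1.12-fold.

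**Figure D2:**
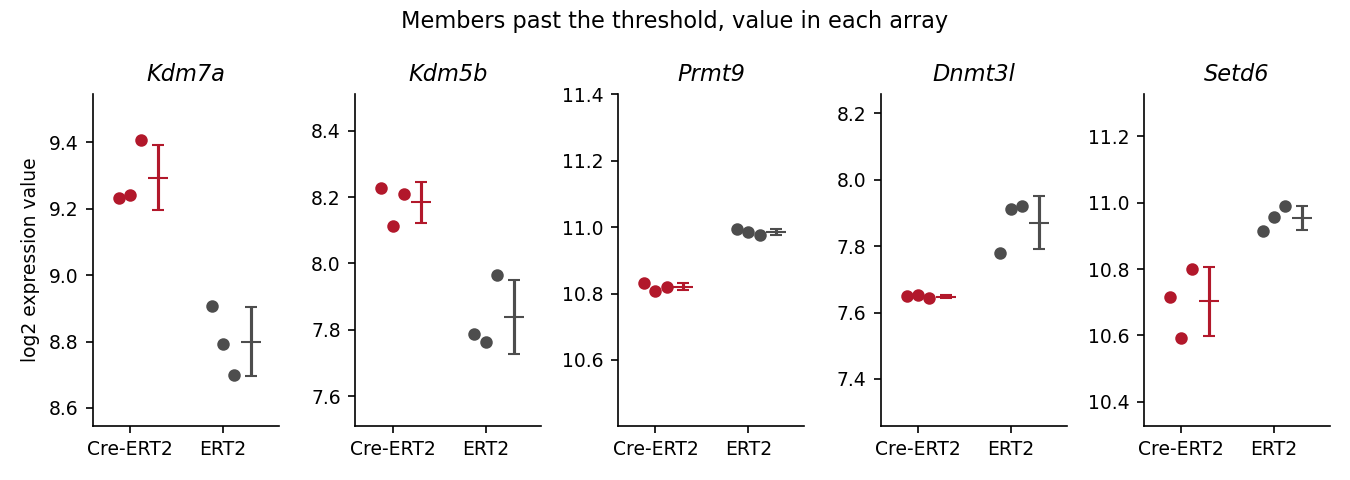
Log2 expression value (y axis) of the 5 called members in each array, Cre-ERT2 in red on the left and ERT2 in grey on the right of each panel, with the mean and SD of 3 arrays beside the points; each panel spans 1 log2 unit. The groups do not overlap in any panel, and the gap is widest for Kdm7a (means 9.29 in Cre-ERT2 and 8.80 in ERT2 cells).

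The arginine methyltransferases as a family had low fold changes. Of 8 measured, 1 fell (Prmt9, beside 2.98% of all genes called lower), 0 rose and 7 did not pass. The fold change was negative for 7 of the 8, beside 68.2% of all genes. The groups did not overlap for 5, all lower in Cre-ERT2 cells (20.3% of all genes were apart in that direction). The median was -0.10, beside -0.04 over all genes. Whether the family differs from other genes was not tested. Prmt3, which methylates a ribosomal protein, had 11.97, 11.93 and 11.87 in Cre-ERT2 arrays and 12.15, 12.04 and 12.04 in ERT2 arrays, at -0.15 (SE 0.0472, limma adjusted p = 0.0998). Prmt7 was at -0.11, Prmt6 at -0.11, and Prmt5, which makes symmetric dimethylarginine on histones and splicing proteins, at -0.10, with limma adjusted p of 0.146, 0.191 and 0.164. Prmt5 read 13.14, 13.13 and 13.13 in Cre-ERT2 arrays, against 13.24, 13.19 and 13.27 in ERT2 arrays. Prmt1, which makes most of the asymmetric dimethylarginine of a cell, was at -0.08 (SE 0.0444), Prmt8 at -0.08 and Prmt2 at 0.02.

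None of the 8 Kmt members was called (0 of 8). Kmt2a, Kmt2c and Kmt2d, large methyltransferases of lysine 4 of histone H3, had positive fold changes with wide intervals. Kmt2c, which marks enhancers, had the smallest p of the family: 11.55, 11.67 and 11.89 in Cre-ERT2 arrays, against 11.54, 11.62 and 11.23 in ERT2 arrays, a difference of 0.24 with a 95% interval of -0.01 to 0.49 (limma adjusted p = 0.238). The groups overlapped. The difference was 0.15 without Cre-ERT2 replicate 3, 0.12 without ERT2 replicate 3 and 0.03 without both. Kmt2a, the gene rearranged in MLL leukaemia, was at 0.16 (-0.12 to 0.44), and Kmt2d, the other enhancer enzyme, at 0.14 (-0.14 to 0.43). Kmt2b, of the same group, was at 0.06 and Kmt2e at 0.05. The enzymes that methylate lysine 20 of histone H4 were at -0.08 (Kmt5a), -0.03 (Kmt5b) and -0.07 (Kmt5c).

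Of the 8 Setd members only Setd6 was called. Setd1a and Setd1b, the catalytic subunits of the SET1 complexes, were at -0.08 (95% interval -0.17 to 0.01) and 0.09 (-0.09 to 0.26). Setd2, which trimethylates lysine 36 of histone H3, was at 0.06 (-0.10 to 0.22). Setd3, which methylates a histidine of actin, had 11.14, 11.12 and 11.24 in Cre-ERT2 arrays and 11.24, 11.36 and 11.29 in ERT2 arrays, at -0.13 (SE 0.0485, limma adjusted p = 0.155). Setd7, which adds a single methyl group to lysine 4 of histone H3 and to other proteins, was at 0.08, Setd4 at -0.06 and Setd5 at -0.01. Of the 7 members that place methyl groups on lysine 4 of histone H3 (Kmt2a to Kmt2d, Setd1a, Setd1b, Setd7), 0 were called and the median was 0.09. Without replicate 3 of both groups this median was -0.04, with 4 of the 7 negative, so its sign rests on those arrays. It was 0.03 without Cre-ERT2 replicate 3 alone and 0.05 without ERT2 replicate 3 alone.

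No acetyltransferase of the Kat family was called (0 of 8, median -0.05). Kat5, the catalytic subunit of the TIP60 complex in DNA repair and gene activation, had the smallest p. It read 10.43, 10.42 and 10.38 in Cre-ERT2 arrays, against 10.50, 10.48 and 10.62 in ERT2 arrays, without overlap and at -0.12 (SE 0.0469, limma adjusted p = 0.161). Kat7 and Kat8, of the same MYST group, were at -0.07 and -0.05, with groups apart for each. Kat6a and Kat6b, partners of the BRPF scaffolds, were at -0.04 and 0.07. Kat2a and Kat2b, the acetyltransferases of the SAGA and ATAC complexes, were at -0.09 and 0.07, and Kat14, also of ATAC, at -0.02. Every 95% interval of this family lay within 1.2-fold in either direction.

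Histone deacetylases were likewise without a call (0 of 11). Hdac3, the enzyme of the NCOR and SMRT corepressors through which BCL6 acts, varied most within groups among them: 12.96, 12.70 and 12.64 in Cre-ERT2 arrays, against 13.02, 12.67 and 12.81 in ERT2 arrays. Its difference was -0.07 with a 95% interval of -0.30 to 0.16, the widest of the deacetylases. Hdac1 and Hdac2, shared by the SIN3, NuRD and CoREST complexes, were at 0.03 (-0.07 to 0.13) and -0.06 (-0.15 to 0.03). Hdac8 was at 0.06.

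Hdac4 had the smallest p of the deacetylases. This class IIa enzyme read 10.94, 10.84 and 10.89 in Cre-ERT2 arrays, against 11.09, 11.02 and 11.01 in ERT2 arrays, at -0.15 (SE 0.0436, limma adjusted p = 0.0875). The groups did not overlap. Its other probe set was at -0.04 (SE 0.0499) with overlapping groups, so the probe sets of this gene differ. The other class IIa enzymes, Hdac5, Hdac7 and Hdac9, were at 0.08, 0.03 and 0.01. Hdac6, which deacetylates tubulin, was at -0.02, Hdac10, a polyamine deacetylase, at -0.01 and Hdac11 at -0.01.

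The sirtuins, deacylases that consume NAD, had 0 calls of 7. Sirt2, mainly cytosolic, had 11.23, 11.21 and 11.25 in Cre-ERT2 arrays and 11.10, 11.05 and 11.21 in ERT2 arrays, at 0.11 (SE 0.0483, limma adjusted p = 0.204). Sirt7, of the nucleolus, was at 0.11 (SE 0.0487, limma adjusted p = 0.214) with groups apart as well. Sirt1 was at 0.06 and Sirt6, a deacetylase of histone H3 at lysine 9, at -0.05. The mitochondrial members Sirt3, Sirt4 and Sirt5 lay between -0.02 and -0.002.

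Among the enzymes of DNA methylation, only Dnmt3l was called. Dnmt1, which copies methylation after replication, had 12.60, 12.59 and 12.70 in Cre-ERT2 arrays and 12.71, 12.77 and 12.70 in ERT2 arrays, at -0.09 (SE 0.0441, limma adjusted p = 0.247). The de novo enzymes Dnmt3a and Dnmt3b were at 0.01 (95% interval -0.09 to 0.10) and -0.03 (-0.11 to 0.05). Dnmt3aos was at -0.10 (SE 0.0608). How its probe set is kept apart from Dnmt3a, on the opposite strand, was not given in the sources used here, so its value is uncertain.

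Tet2, the dioxygenase often mutated in human blood cancers, had 11.11, 11.20 and 11.39 in Cre-ERT2 arrays, against 11.04, 11.14 and 10.88 in ERT2 arrays. The groups overlapped, and it was at 0.21 with a 95% interval of 0.03 to 0.40 (limma adjusted p = 0.168). The difference was 0.14 without Cre-ERT2 replicate 3, 0.15 without ERT2 replicate 3 and 0.07 without both. Tet1 and Tet3 were at 0.07 and 0.01. The other 2 Tet1 probe sets were at -0.10 and 0.01, so the probe sets of Tet1 do not share a sign.

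Within groups, a few members varied far more than the rest. Of the 8 members with the largest residual SD, 7 (Kmt2d, Kmt2a, Kmt2c, Kdm5a, Tet2, Hdac8 and Setd1b, chosen here for that spread) had Cre-ERT2 replicate 3 as the highest of its group and ERT2 replicate 3 as the lowest of its group. Kmt2a, for example, read 11.18, 11.23 and 11.57 in Cre-ERT2 arrays, against 11.27, 11.31 and 10.93 in ERT2 arrays. Leaving replicate 3 aside, the Cre-ERT2 values of this gene lay below the ERT2 values. This pattern held for 22 of the 73 members (30.1%), beside 15.5% of all genes, and the reverse pattern for 8 members, beside 15.4% of all genes. These shares are a description of 6 arrays. The share among the genes of largest spread over the whole array was not computed, so the 7 of 8 has no like background. What set these arrays apart was not tested. Kdm7a was among the 22, and Kdm5b was not.

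**Figure D3:**
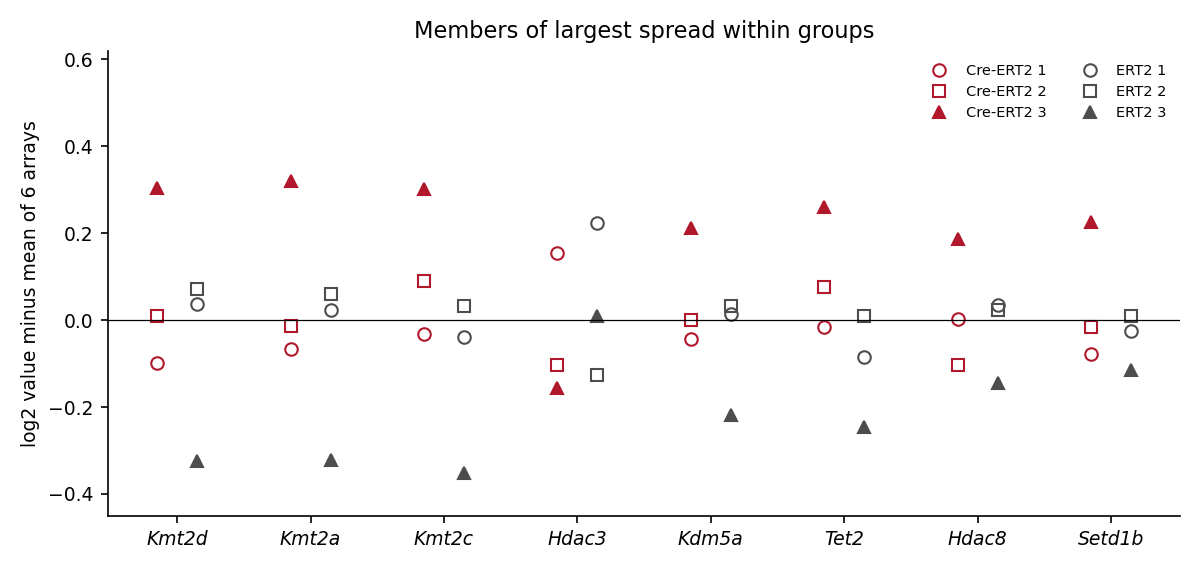
Log2 value minus the mean of 6 arrays (y axis) for the 8 members of largest residual SD, Cre-ERT2 in red on the left and ERT2 in grey on the right, with filled triangles for replicate 3. For 7 of the 8 genes, all but Hdac3, the red triangle is the highest red symbol and the grey triangle the lowest grey symbol.

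Of 117 measured genes from 10 lists of partners, readers and cofactor enzymes, 6 rose, 5 fell and 106 did not pass. The 11 calls are 9.40% of these genes, beside 7.03% of all genes, and the median fold change was -0.03. Among DNA methylation partners, Gadd45b, a stress-induced gene linked to DNA demethylation, read 10.86, 10.88 and 10.74 in Cre-ERT2 arrays, against 9.98, 9.88 and 10.15 in ERT2 arrays. The groups were far apart, and it rose by 0.82 (SE 0.0705, limma adjusted p = 0.000245), or 1.77-fold. Its relative Gadd45g rose by 0.29 (SE 0.0585), and Uhrf2, a relative of the Dnmt1 recruiter Uhrf1, fell by 0.22 (SE 0.0427). Gadd45g averaged 8.82 in Cre-ERT2 cells and 8.53 in ERT2 cells, the latter below the median of every array over all probe sets. The other 7 of 10 did not pass.

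Of 7 other acetyltransferases and coactivators, Ncoa1 rose by 0.29 (SE 0.0517, limma adjusted p = 0.0112) and Ncoa3 by 0.17 (SE 0.0399, adjusted p = 0.0395), both coactivators of nuclear receptors. Of 23 subunits of acetyltransferase complexes, 3 fell: Supt3 by 0.18 and Sgf29 by 0.18, both of SAGA-type complexes, and Ing3, of the TIP60 complex that holds Kat5, by 0.17, with limma adjusted p from 0.0271 to 0.0488. Of 25 subunits of deacetylase complexes, the NuRD subunits Mta3 (0.23, SE 0.0366) and Chd3 (0.17, SE 0.0416) rose. Of 11 subunits of the MLL and SET1 complexes, Paxip1, a partner of Kmt2c and Kmt2d, fell by 0.15 (SE 0.0371, adjusted p = 0.0448). Over all genes, 4.05% were called higher and 2.98% lower. These lists are short, were chosen with earlier results of these data known, and were not tested as sets.

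No gene was called among 15 other lysine methyltransferases, where Nsd2 was nearest (-0.12, limma adjusted p = 0.0943), 8 other JmjC proteins (Riox2 at -0.08), 8 acetyl-lysine readers (Baz2b at 0.22, adjusted p = 0.123), 9 enzymes of cofactor supply (Nampt, for NAD, at -0.14, adjusted p = 0.0871) or for the arginine methyltransferase Carm1 (-0.04).

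With 1 array left out, the 2 rises kept their calls in more fits than the 3 falls. Over all genes, higher calls went from 808 to between 513 and 713 in these fits. Lower calls went from 594 to between 214 and 365, except 628 without Cre-ERT2 replicate 3. Kdm7a kept its call without any single array, at a limma adjusted p of up to 0.0145, and Kdm5b without any but ERT2 replicate 1, where its adjusted p was 0.0509. Setd6 and Prmt9 kept theirs only without Cre-ERT2 replicate 3, and Dnmt3l only without ERT2 replicate 1, with adjusted p of up to 0.104, 0.117 and 0.0901 otherwise. The direction of all 5 was the same in each of these fits. Of the partner genes, Gadd45b, Ncoa1 and Mta3 kept their calls without any single array. Ncoa1 lost its call without replicate 3 of both groups (limma adjusted p = 0.0540) and in the fit with the replicate number as a block (0.0627), and Mta3 with the mean of its probe sets (0.09, limma adjusted p = 0.161). Ncoa3, Chd3, Paxip1 and Sgf29 lost theirs whichever array was left out, and Supt3, Ing3, Gadd45g and Uhrf2 lost theirs without at least 3 of the 6 arrays.

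**Figure D4:**
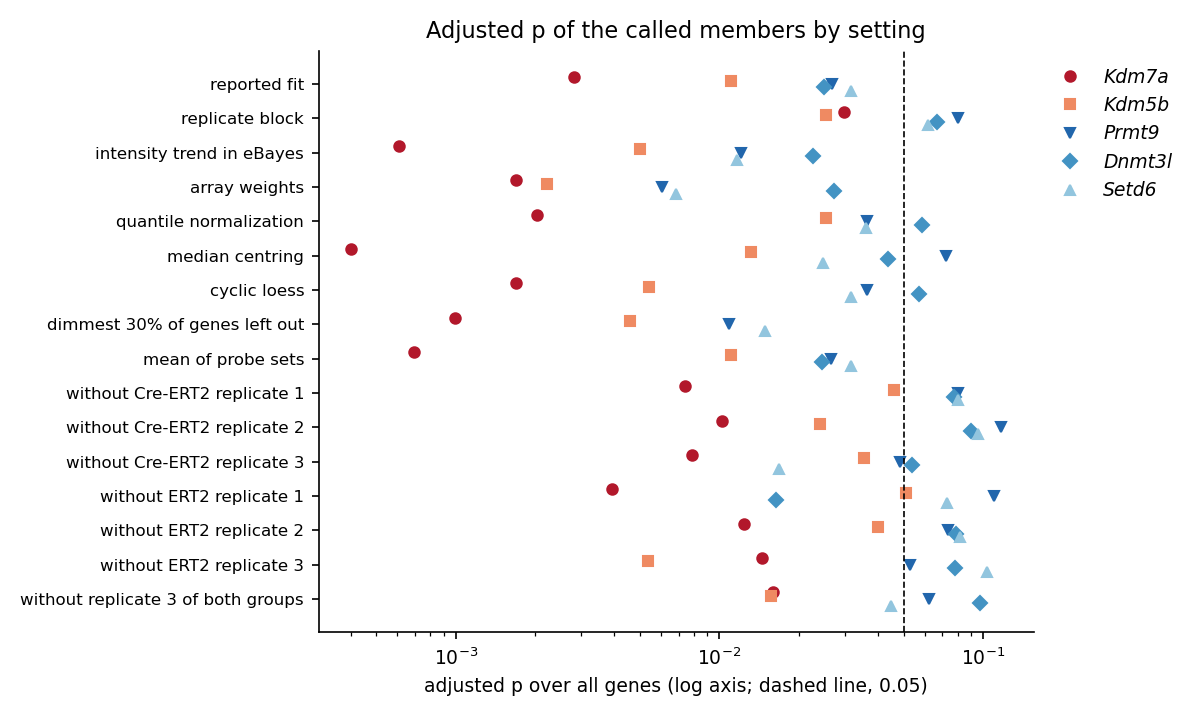
Adjusted p over all genes (x axis, log scale) of the 5 called members under the reported fit and each other setting (rows), with the dashed line at 0.05. Kdm7a lies left of the line in every row, Kdm5b in every row but 1 (0.0509 without ERT2 replicate 1), and the genes that fell cross it in most rows that leave out an array.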

How the data were processed

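RNA of 6 samples, 3 Cre-ERT2 and 3 ERT2, was hybridised to 1 Affymetrix array each. The authors deposited 1 log2 value per probe set and array, and per the submitters' processing notes the tools include RMA and Partek 6.5, with no step assigned to them. A genome build is not given in the sources used here. No detection call was at hand. RMA is known to compress differences, so fold changes may be understated.

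Probe sets were named from the platform's annotation: 35556 were measured, of which 21789 had 1 symbol, 1621 named several genes and 12146 were unlisted. Where several single-symbol probe sets shared a gene, the one with the highest mean over 6 arrays was kept, leaving 19938 genes. Several probe sets existed for 999 genes, among them 9 of the 73 members. The gene identifiers of all 73 members matched the GRCm38.p6 gene table, which was used for names and chromosomes.

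On all 6 arrays, limma 3.58.1 (R 4.3.3) fitted the group difference by lmFit, then eBayes with no trend and no block, with Benjamini-Hochberg adjustment over all genes and a threshold of 0.05. With so few arrays precision is limited, and over all genes the standard error of the fold change had a median of 0.0477 (log2). Named genes were Bcor, every called member, the member of smallest p in each family, and up to 4 called genes (otherwise that of smallest p) from each partner list. The other members are given by fold change, and per-array values beyond this rule (Kmt2a, Kdm2a, Hdac3, Prmt3, Prmt5, Setd3 and Dnmt1) were chosen after they were seen, as were Phf2, Phf8 and the marker genes named. The members and lists were chosen with earlier results of these data known. The limma fit was tested on simulated data, where recovery was required only for changes larger than that of any member. No recovery rate for changes of the size called here is given. Python 3.11.15 with pandas 2.3.3 was used for promoters, and matplotlib 3.10.9 for the plots.

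The fit was repeated with a replicate block, an intensity trend, array weights, 3 other scalings (quantile, median centring, cyclic loess), without the dimmest 30% of genes, with probe sets averaged per gene, at an adjusted p of 0.1 and without each array. Leaving out replicate 3 of both groups was added after the data were seen.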

Additional observations from a re-analysis of the deposited data

How the results depend on the processing

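All 5 called members kept their direction under every alternative run, except that Dnmt3l was not tested with the dimmest 30% of genes left out. Of all genes, 1402 were called, and 805 with the replicate block, 3339 with array weights, 2271 at an adjusted p of 0.1, and 743 to 1341 with 1 array left out. With array weights 39.4% of calls were higher, against 57.6% in the reported fit, and with cyclic loess 67.9%. Members called higher stayed at 2, except 1 to 2 with 1 array left out (1 without ERT2 replicate 1). Members called lower were 3, and 0 with the replicate block, 6 with an intensity trend, 7 with array weights, 5 at an adjusted p of 0.1, 0 to 2 with 1 array left out, and 1 without replicate 3 of both groups, an alternative chosen after seeing the data. The cause of these moves was not tested. The groups share the numbers 1 to 3, but nothing in the labels says that these pair the samples, so the replicate block was an alternative only. The deviations of same-numbered arrays from their group means correlated at 0.0506, -0.0946 and -0.260 over all genes for numbers 1 to 3. These values cannot show whether the samples were paired, since deviations from a mean of 3 arrays depend on one another. The paired fit (replicate block) ended the calls of Setd6, Prmt9 and Dnmt3l (adjusted p 0.0616, 0.0806 and 0.0671) and kept those of Kdm7a and Kdm5b. It also ended 8 of the 11 partner calls, all but Gadd45b, Gadd45g and Mta3 (adjusted p 0.0623 to 0.0984 for the 8). Over all genes, higher calls went from 808 to 546 and lower calls from 594 to 259 in this paired fit. Quantile normalization and cyclic loess ended the call of Dnmt3l (adjusted p 0.0587 and 0.0570), and median centring that of Prmt9 (0.0723). Hdac4 was called with an intensity trend, array weights, or the dimmest 30% of genes left out. Prmt3 was called with the trend or array weights, Prmt5 with the trend, and Prmt6 and Kdm4a with array weights, all lower. Of the partner genes named, Nsd2 was called lower with the trend or array weights. Nampt was called lower with the trend or the dimmest 30% left out. At an adjusted p of 0.1, Hdac4, Prmt3, Nsd2 and Nampt were called too. Carm1, not called, ranged from -0.084 to 0.0079 with 1 array left out, its sign turning without ERT2 replicate 3. Under quantile normalization 7 members and under cyclic loess 5 changed sign, none of them beyond 0.02 in the reported fit. The median of all genes was -0.04 in the reported fit and -0.01 after cyclic loess. Signal over background is not known here, so the low values of Dnmt3l, Kdm5b, Prmt8, Tet1 and Kdm4d carry no statement on expression. The same holds for the probe set of Kdm7a that the rule did not use, for Ncr1, and for Gadd45g in ERT2 cells.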
